A study of Homo sapiens with 22 samples.

Results

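The 10 genes described here encode the 3 TGF-β ligands (TGFB1, TGFB2 and TGFB3), 3 receptors (TGFBR1, TGFBR2 and TGFBR3) and 4 latent TGF-β binding proteins (LTBP1, LTBP2, LTBP3 and LTBP4). They were taken by name from a table of 36859 genes, and their levels did not enter the choice. Their mRNA was measured by RNA-seq in 22 libraries of RPTEC, a line of human renal proximal tubule epithelial cells immortalized with hTERT, in 11 groups of 2. In media with 2% serum these were untreated WT cells, WT cells treated for 72 h with TGF-β at 10 ng·mL−1, 2 SETD2 knockout clones named KO1 and KO2, and cells labelled KO2_Rescue. In media with 10% serum they were Rescue1 and Rescue2, which are KO cells with full-length SETD2 restored from a lentivirus, and transduced WT cells that carried eGFP, SOX2, OCT2 or PRRX1. The parent KO clone of Rescue1 and Rescue2 is not certain from the sources used here, so the mean of both KO clones serves as their reference. KO1, KO2, Rescue1 and Rescue2 each grew from a single clone, so a difference between clones and an effect of SETD2 cannot be told apart within any of them. The transduced WT cells were selected in bulk with puromycin, the rescue cells were selected with blasticidin, and all cells carried hTERT under G418. Rescue clones and eGFP cells thus share serum but differ in drug, cloning, parent cells and SETD2, which cannot be told apart in that comparison. The serum content differs between the rescue clones and the KO clones and between the eGFP cells and WT, so serum and genotype or transduction cannot be told apart in those comparisons.

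TGF-β ligands are made as precursors whose cleaved propeptide stays wrapped around the growth factor and keeps it latent. Latent binding proteins are disulfide-linked to that propeptide and tether the complex to fibrillin in the matrix, from which integrins or proteases release it, although LTBP2 does not bind the propeptide and LTBP4 binds that of TGFB1 weakly. The released ligand binds TGFBR2, which recruits and phosphorylates TGFBR1, and TGFBR1 phosphorylates SMAD2 and SMAD3. TGFBR3, or betaglycan, is a co-receptor that presents TGFB2 in particular. In proximal tubule cells the pathway is best known for loss of epithelial character and deposition of matrix.

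All values are normalized counts, obtained from the deposited log2 values, and a log2 change is on the log2(normalized count + 1) scale of a limma fit over all 22 libraries. A gene was called when its Benjamini-Hochberg adjusted p was under 0.05 and its absolute log2 change over 1. Each library held about 7620000 to 18830000 reads, and nothing states that duplicates came from separate cultures, so the p-values measure the spread between these libraries, which may be technical. SETD2 mRNA was 1852 and 2061 in WT, 1046 to 1130 in KO1 and KO2 and 9764 to 10445 in Rescue1 and Rescue2. In the cells labelled KO2_Rescue it was 834 and 820, below both KO clones, which goes against that label. Of 9 renal epithelial markers, 7 or 8 averaged at least 10 normalized counts in every group, while LRP2, which encodes megalin, was at 0 in every group but KO2, and the 4 leukocyte markers summed to at most 20.1.

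The 2 WT libraries differed in mRNA of the pathway's targets. Of 9 measured targets of TGF-β, 8 were higher in WT replicate 1, with a median difference of 1.16 on the log2 scale, and COL1A1 was 11919 there against 532 in WT replicate 2. TGFB1, TGFB2 and TGFB3 had their widest gap between duplicates in WT, and all 3 were higher in WT replicate 1. For the 10 genes, each result against WT is therefore also given without the WT library on which a call depends. With 1 library left, that library is assumed to vary like the others.

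All 10 genes passed the filter of 10 normalized counts in 2 libraries, some of them through a few groups only. Compared per kb of transcript, TGFBR2 was the most abundant in every group but WT cells treated with TGF-β. Its group means were 817.5 to 2283 normalized counts per kb. In the treated cells TGFB1 (1324) and LTBP4 (1105) were above TGFBR2 (817.5). In the other groups LTBP4 and TGFB1 followed TGFBR2. Over all groups LTBP4 (475 to 1105) and TGFB1 (465 to 1324) had overlapping ranges. TGFBR3 was the least abundant in every group but the eGFP and OCT2 cells, where LTBP1 was lower. TGFBR3 had group means of 0.335 to 6.67 per kb and was at 0 in 6 of 22 libraries. LTBP1 was at 0 in 3 libraries, all of them transduced WT cells.

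**Figure D1:**
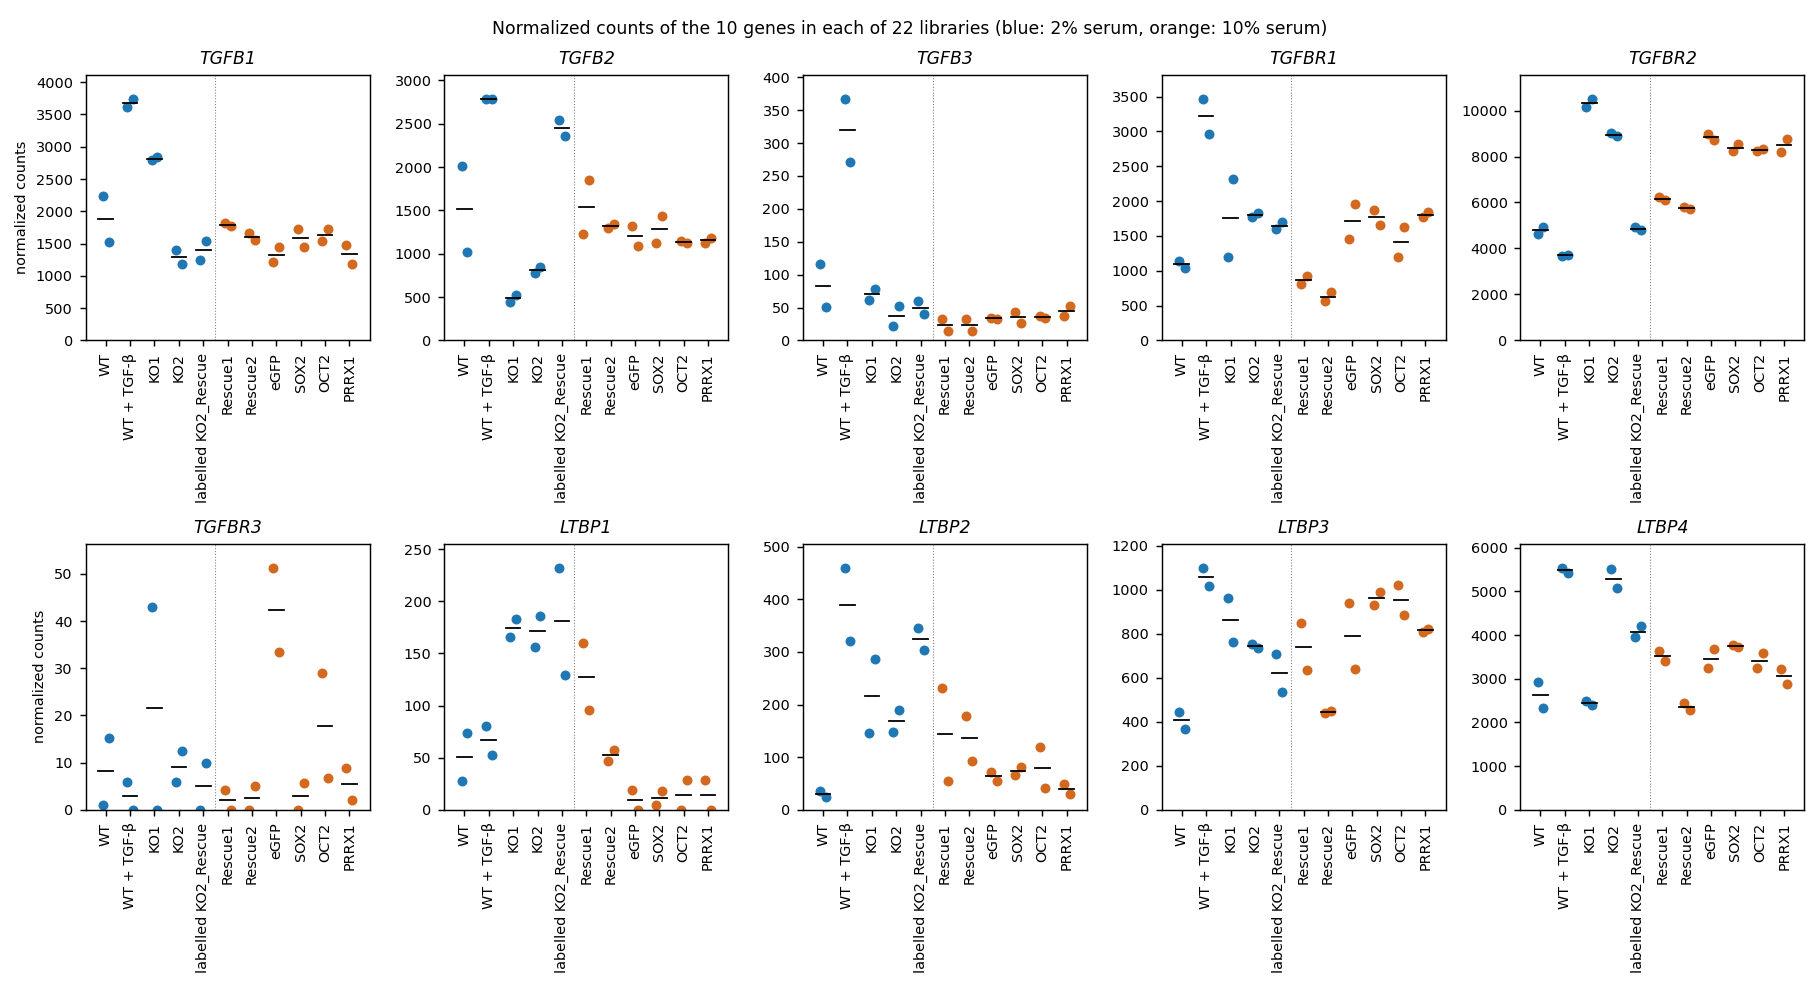
Normalized counts (y axis, linear from 0) of each gene in each of the 22 libraries, by group (x axis), with the group mean as a bar, blue for 2% serum and orange for 10% serum. TGFBR2 duplicates lie close together in every group, while TGFBR3 and LTBP1 reach 0 in some libraries.

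Treatment of WT cells with TGF-β raised 5 of the 10 genes and lowered none by the call, where 7.84% of the 14585 genes tested were called and 3.58% were called higher. LTBP2, TGFB3, TGFBR1, LTBP3 and LTBP4 rose. The median log2 change was 1.03 over the 10 genes and 0 over all genes tested. In these bulk libraries, a change in RNA per cell and a change in the mix of cells cannot be told apart. Without WT replicate 1 the count was 7 and without WT replicate 2 it was 3. In a limma fit of the 4 libraries of WT and treated cells alone, none of the 10 was called, nor was any of the 14585 genes, of which 1566 passed with an unadjusted p.

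LTBP2 was called higher in both knockout clones, and no ligand was. In KO1, 4 of the 10 genes were called (LTBP2, TGFBR2 and LTBP3 higher, TGFB2 lower), where 25% of all genes were. In KO2, 2 were called, LTBP2 and LTBP4, both higher, where 16.3% of all genes were called and 9.02% were called higher. The share in KO2 was close to that of all genes, so the count there is no result about these genes as a family. Every comparison here with WT shares the same 2 WT libraries.

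Knockout clones and treated cells were also compared directly, which needs no WT library. TGFBR2 was higher in the KO clones (log2 change 1.38, SE 0.04, adjusted p = 2.8e-12), and TGFB2 and TGFB3 were lower, where 20.2% of all genes were called and 9.83% were called lower. TGFB1, TGFBR1 and LTBP4 were lower in the KO clones with an adjusted p under 0.05, which 36.3% of all genes had, and under the fold threshold.

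**Figure D2:**
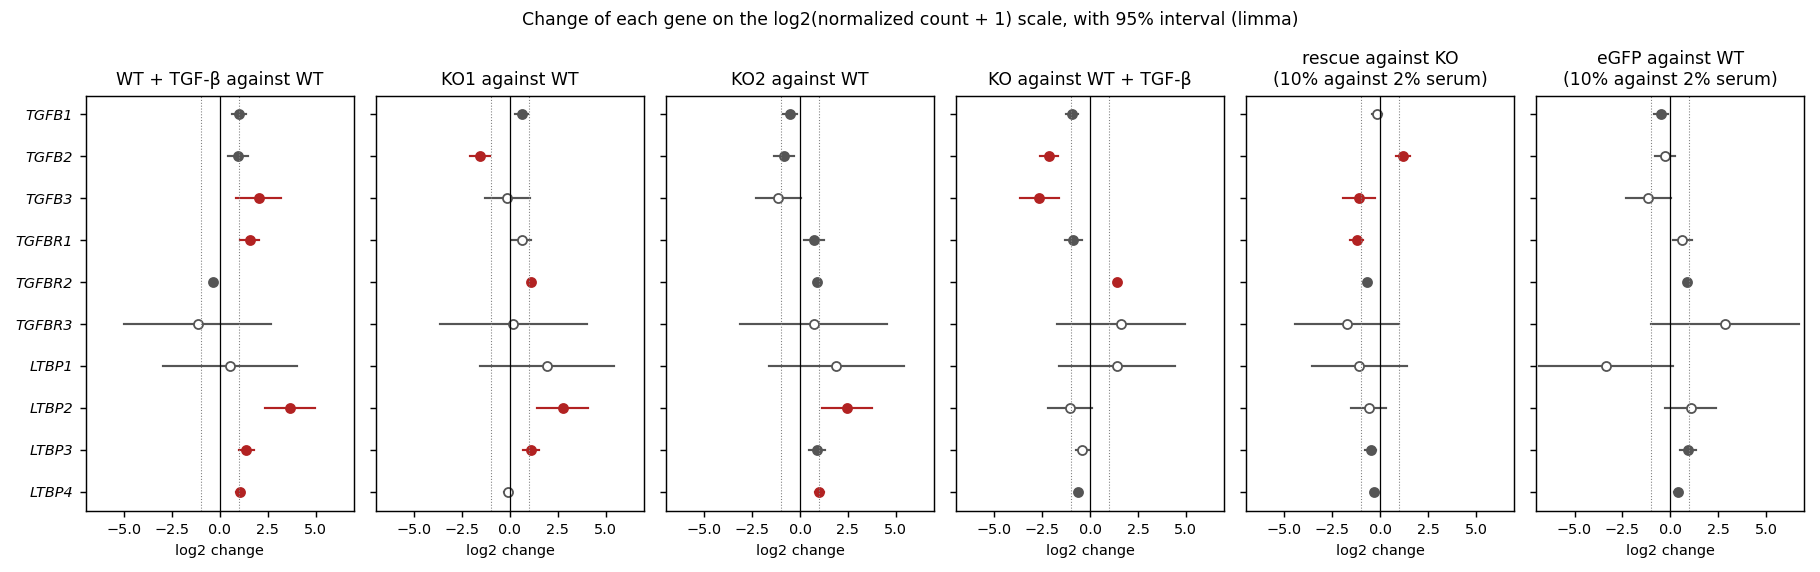
Log2 change (x axis) of each gene (y axis) in 6 comparisons, with 95% intervals from limma, where red marks a called change, a filled grey point an adjusted p under 0.05 alone and dotted lines a log2 change of 1. TGFBR2 lies below 0 with TGF-β and above 0 in KO1, KO2 and eGFP cells, and the intervals of TGFBR3 and LTBP1 span several log2 units.

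TGFB1 (ENSG00000105329, chromosome 19 from 41301587 to 41353922, minus strand), the ligand of widest expression, had 2238 and 1526 normalized counts in WT. Treated cells had 3618 and 3744, KO1 had 2790 and 2835 and KO2 had 1404 and 1182. The treated libraries were the highest of all 22, KO1 came next, and neither group overlapped WT, whereas both KO2 libraries lay just below WT. The log2 change with TGF-β was 0.99 (SE 0.17, adjusted p = 7.5e-04), just under the fold threshold, and it passed at 1.27 without WT replicate 1 and at 1.02 without treated replicate 1 and was 0.72 without WT replicate 2. KO1 differed from WT by 0.61 (adjusted p = 0.0103) and KO2 by −0.52 (adjusted p = 0.0313), with opposite signs and both under the fold threshold. The KO1 value was 0.33 (adjusted p = 0.156) without WT replicate 2, and the KO2 value was −0.24 (adjusted p = 0.345) without WT replicate 1. Tested directly, TGFB1 was 2.18-fold higher in KO1 than in KO2 (log2 change 1.13, SE 0.17, adjusted p = 3.6e-04), where 6.97% of all genes were called between the clones. That difference was 0.94, under the threshold, when the libraries were brought to equal totals, and its adjusted p was 0.0582 with the libraries of KO1 and KO2 alone. The other 7 groups had means of 1329 to 1789, and most neighbours in that order overlapped. TGFB1 overlaps 4 other genes of the table, among them HNRNPUL1 and TMEM91, so reads of shared sequence could be split between them.

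TGFB2 (ENSG00000092969, chromosome 1 from 218345336 to 218444619, plus strand), the ligand that depends most on betaglycan, had 2018 and 1021 normalized counts in WT. Treated cells had 2788 and 2789, KO1 had 449 and 522, KO2 had 777 and 847, and the cells labelled KO2_Rescue had 2546 and 2356. Both KO clones were below all other libraries, and the treated and the labelled KO2_Rescue libraries were above all others. In KO1 the fall from WT was called (log2 change −1.57, SE 0.24, adjusted p = 1.1e-04), also without either WT library, but not with the libraries of KO1 and WT alone (adjusted p = 0.0815). In KO2 it was −0.82 (adjusted p = 0.0187) and not called, with −0.33 without WT replicate 1 and −1.31, past the threshold, without WT replicate 2, and equal library totals brought a call (−1.05, adjusted p = 0.00247), while the difference between the clones was −0.74 (adjusted p = 0.0512). Against WT the change with TGF-β was 0.96 (adjusted p = 0.0128), and it was 1.45 without WT replicate 1 and 0.47 (adjusted p = 0.176) without WT replicate 2.

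The gap in TGFB2 between knockout and the other cells did not rest on WT alone. TGFB2 was lower in the KO clones than in the treated cells by a log2 change of −2.15 (SE 0.21, adjusted p = 1.2e-06). Rescue1 had 1232 and 1850 normalized counts and Rescue2 had 1299 and 1345, all above the KO libraries, a log2 change of 1.17 (SE 0.17, adjusted p = 5.2e-05) with the difference in serum noted above. Of the 10 genes, 3 were called between rescue and KO clones, where 23.3% of all genes were. Against KO2 alone the TGFB2 difference was 0.80, under the threshold, and 1 of the 10 genes was called. The labelled KO2_Rescue cells, grown in the same 2% serum as KO2, had 3.02-fold more TGFB2 (log2 change 1.59, SE 0.24, adjusted p = 4.7e-04). TGFB2 was the 1 gene of 10 called there, where 4.17% of all genes were called and 1.65% were called higher, in cells whose SETD2 mRNA was not above that of KO2. Rescue clones and eGFP cells, both in 10% serum, differed in TGFB2 by 0.24 (95% interval −0.21 to 0.69).

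TGFB3 (ENSG00000119699, chromosome 14 from 75958097 to 75983011, minus strand) was the scarcest ligand, with group means of 23.5 to 319 normalized counts. It had 116 and 50.3 in WT, 367 and 271 in treated cells, 61.5 and 78.6 in KO1 and 22.6 and 52.3 in KO2. The treated libraries stood above all others, and both KO clones overlapped WT. The rise with TGF-β was 4.09-fold (log2 change 2.03, SE 0.55, adjusted p = 0.0181), and the call was lost without WT replicate 2 (1.44, adjusted p = 0.194) or without either treated library (adjusted p of 0.0519 and 0.126). The log2 change from WT was −0.13 in KO1 (95% interval −1.31 to 1.04) and −1.13 in KO2 (−2.30 to 0.05). Against the treated cells, the KO clones were lower by a log2 change of −2.66 (SE 0.48, adjusted p = 4.2e-04). Libraries of the rescue clones had 14.8 to 32.3 and overlapped the lowest KO library. The log2 change was −0.63 from KO2 alone (adjusted p = 0.348, not called) and −1.12 from the mean of both KO clones (adjusted p = 0.0279). This call was lost without KO1 replicate 2, KO2 replicate 2, Rescue1 replicate 2 or Rescue2 replicate 2 (adjusted p of 0.0727 to 0.128), with equal library totals (adjusted p = 0.125) and in a fit of the rescue and KO libraries alone (adjusted p = 0.120).

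The 250 bases before 2 annotated starts of TGFB3 are shown because TGFB3 was the ligand that TGF-β raised past the threshold. They are RefSeq sequences on GRCh38.p14, minus strand, read 5′ to 3′, neither window holds a GENCODE exon, and capitals mark the SMAD box CAGAC or its reverse complement GTCTG.
TGFB3 upstream, chr14:75983012-75983261: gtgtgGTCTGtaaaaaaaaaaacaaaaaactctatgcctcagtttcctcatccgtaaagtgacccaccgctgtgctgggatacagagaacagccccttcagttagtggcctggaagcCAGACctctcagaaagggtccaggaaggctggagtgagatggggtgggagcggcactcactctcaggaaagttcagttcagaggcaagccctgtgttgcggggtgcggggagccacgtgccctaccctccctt
TGFB3 internal start, chr14:75981996-75982245: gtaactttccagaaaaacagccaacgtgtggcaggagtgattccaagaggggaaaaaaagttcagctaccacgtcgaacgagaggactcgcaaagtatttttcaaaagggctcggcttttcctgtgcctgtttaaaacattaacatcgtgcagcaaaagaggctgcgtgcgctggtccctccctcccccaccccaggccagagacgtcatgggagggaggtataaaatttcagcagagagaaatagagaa
The upstream window held 2 SMAD boxes and no TATA box, and the internal window held no SMAD box and 1 TATAAA. Over both strands, CAGAC was present in 38.0% and TATAAA in 10.7% of 35116 RefSeq promoter windows of the same length. All 10 genes had a RefSeq window, 23 in total, of which 10 (43.5%), from 5 genes, held CAGAC. None of the 23 held the AP-1 motif TGANTCA, which was present in 6.57% of all windows. A match describes the letters and not a bound site.

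Summed per kb, the 3 ligands reached 1892 ± 12.3 normalized counts (SD, n = 2) with TGF-β, 960 ± 315 in WT, 1115 ± 23.5 in KO1 and 614.5 ± 41.9 in KO2. KO2 had the lowest mean of ligand mRNA and the treated cells the highest. TGFB1 made up 90.8% ± 0.91 of ligand mRNA in KO1 and 75.6% ± 4.0 in KO2, against 71.2% ± 4.5 in WT and 70.0% ± 1.2 with TGF-β. The share with TGF-β lay within 1 SD of that in WT. TGFB2 over TGFB1 per kb was 0.0763 and 0.0872 in KO1, below the 0.262 to 0.973 of the other 20 libraries.

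**Figure D3:**
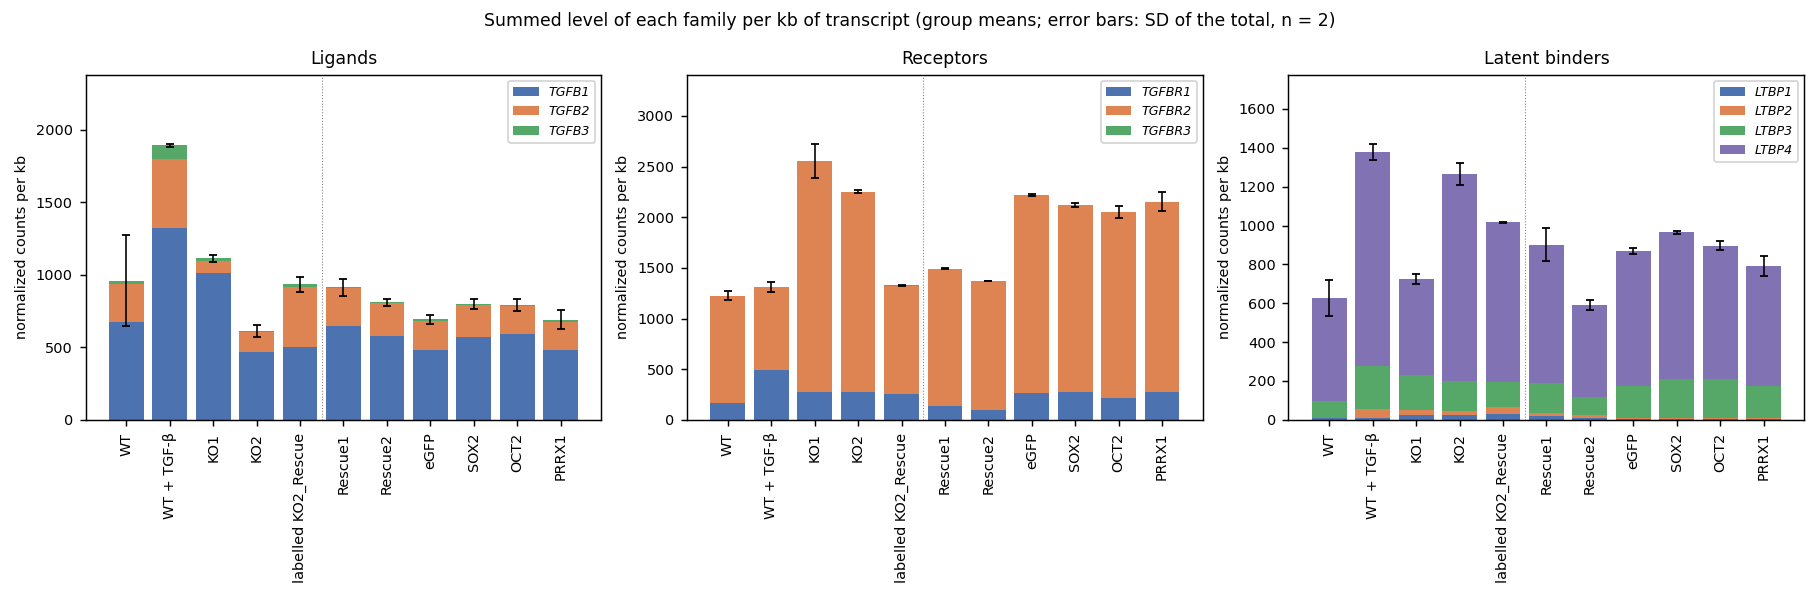
Normalized counts per kb of canonical transcript (y axis, linear from 0) for ligands, receptors and latent binders, stacked by gene, for the 11 groups (x axis), where bars are group means and error bars the SD of the total (n = 2). TGFBR2 makes up most receptor mRNA and LTBP4 most latent binder mRNA in every group.

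TGFBR1 (ENSG00000106799, chromosome 9 from 99104038 to 99154192, plus strand), the type I receptor kinase, had 1137 and 1043 normalized counts in WT. Treated cells had 3469 and 2961, KO1 had 1201 and 2314 and KO2 had 1767 and 1829. The treated libraries were the highest of all 22 and the KO1 duplicates lay far apart. The rise with TGF-β was 2.94-fold (log2 change 1.56, SE 0.24, adjusted p = 3.0e-04) and was called without either WT library. In KO2 the change was 0.72 (adjusted p = 0.0319) and in KO1 0.61 (adjusted p = 0.0520), both under the fold threshold.

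Rescue1 had 807 and 923 normalized counts of TGFBR1 and Rescue2 had 561 and 695, which were the 4 lowest libraries. The fall from the KO clones was called (log2 change −1.24, SE 0.17, adjusted p = 2.3e-05), and it was −0.84 with equal library totals. Against eGFP cells in the same 10% serum, which had 1459 and 1956, the change was −1.20 (SE 0.20, adjusted p = 4.1e-04). It was called unless eGFP replicate 2 was left out (−0.99). TGFBR1 was 1 of 2 genes called between rescue clones and eGFP cells, where 13.1% of all genes were.

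TGFBR2 (ENSG00000163513, chromosome 3 from 30606601 to 30694142, plus strand), the type II receptor that binds the ligand, had 4625 and 4947 normalized counts in WT. Treated cells had 3678 and 3729, KO1 had 10168 and 10513 and KO2 had 9006 and 8891. The treated libraries were the lowest of all 22, KO1 was the highest, and no 2 of these 4 groups overlapped. Duplicates differed by at most 0.097 on the log2 scale, the narrowest spread of the 10 genes. TGFBR2 was lower with TGF-β by a small log2 change of −0.37 (SE 0.05, adjusted p = 1.0e-04), the opposite sign to TGFBR1 in the same libraries. In KO1 it rose 2.16-fold (log2 change 1.11, SE 0.05, adjusted p = 1.7e-10), and in KO2 it was higher by 0.90 (adjusted p = 3.8e-09), just under the fold threshold. Both directions held without either WT library. With equal library totals the median of all genes moved by −0.39 in KO1, and the TGFBR2 change there was 0.70 (adjusted p = 1.5e-07), under the threshold, and it was 0.95 with quantile normalization.

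Transduced WT cells in 10% serum had TGFBR2 levels near those of KO2. The eGFP libraries had 8976 and 8716 normalized counts, and all 8 transduced libraries lay between 8210 and 8976. The eGFP cells differed from WT by 0.89 (SE 0.05, adjusted p = 1.1e-08), in a comparison where none of the 10 genes was called and 12.7% of all genes were. Rescue1 had 6222 and 6100 and Rescue2 had 5820 and 5713, between WT and KO2. They were lower than the KO clones (log2 change −0.69, adjusted p = 6.2e-10) and than the eGFP cells in the same serum (−0.57, SE 0.04, adjusted p = 1.7e-07), in both cases under the fold threshold. The labelled KO2_Rescue libraries had 4919 and 4789, within the range of WT, a log2 change of −0.88 from KO2 (SE 0.05, adjusted p = 2.5e-08).

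The sequence before the outer annotated start of TGFBR2 is shown beside that of TGFB3 because the changes of the 2 genes with TGF-β had opposite signs. It is on GRCh38.p14, plus strand, and also holds no GENCODE exon.
TGFBR2 upstream, chr3:30606106-30606355: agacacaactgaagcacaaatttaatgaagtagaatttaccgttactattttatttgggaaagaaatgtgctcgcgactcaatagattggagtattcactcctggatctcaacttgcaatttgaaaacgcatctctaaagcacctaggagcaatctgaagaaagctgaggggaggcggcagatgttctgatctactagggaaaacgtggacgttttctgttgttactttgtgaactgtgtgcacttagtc
It held neither a SMAD box nor an AP-1 motif nor a TATA box, nor did the window before the inner start. G or C made up 40.8% of its bases and 58.4% of the inner window, against a median of 58.0% over all windows. Of the other genes called higher with TGF-β, LTBP2 and LTBP3 had no SMAD box in any window, and TGFBR1 and LTBP4 had it in some. LTBP1 and TGFB2, not called, had it in every window. A link between the motif and the changes was not tested.

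The 2 signalling receptors were also set against each other in each library. TGFBR2 over TGFBR1 per kb was 5.83 and 6.80 in WT but 1.52 and 1.80 in treated cells, the lowest of all libraries. It was 12.1 and 6.51 in KO1, 7.30 and 6.97 in KO2 and 9.47 to 14.9 in the 4 libraries of Rescue1 and Rescue2. TGFBR2 made up 62.3% ± 2.9 (SD, n = 2) of receptor mRNA per kb with TGF-β and 80.8% to 92.9% in the other groups.

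TGFBR3 (ENSG00000069702, chromosome 1 from 91680343 to 91906335, minus strand) was at or under 3 normalized counts in 8 of 22 libraries. Its highest libraries were the eGFP cells, with 51.2 and 33.3, and KO1 replicate 1, with 43.0, while KO1 replicate 2 had 0. No neighbouring groups in the order of its means were apart. No comparison passed an adjusted p of 0.05. The interval was −3.66 to 4.03 for KO1 against WT, where a difference was not detectable at this depth. The nearest to a call was rescue clones against eGFP cells, at −4.15 (95% interval −7.48 to −0.82, adjusted p = 0.0585), with 2 of the 4 rescue libraries at 0, and it was called under 3 of 16 alternatives.

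**Figure D4:**
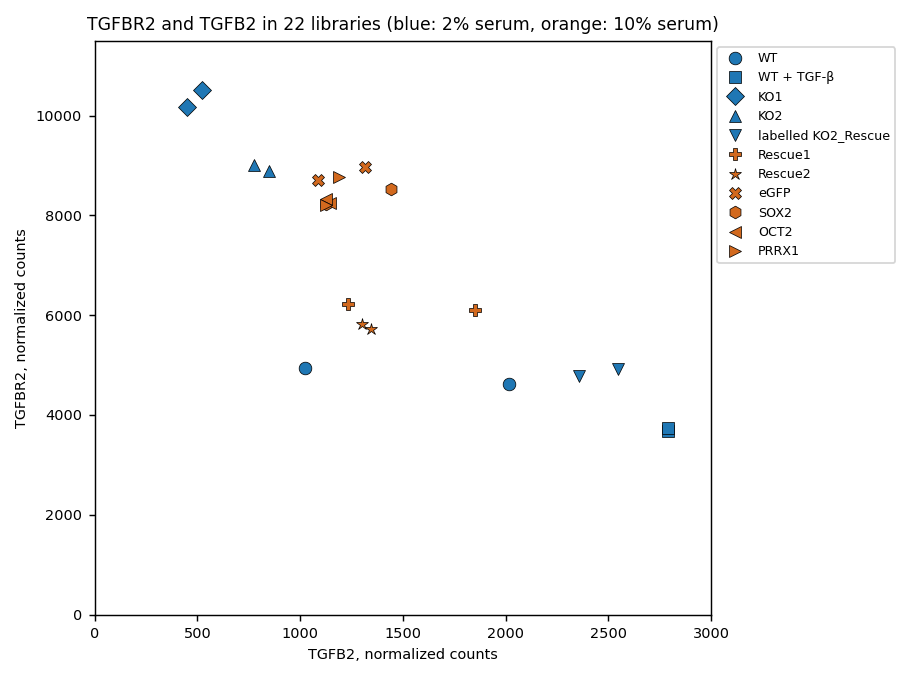
TGFBR2 (y axis) against TGFB2 (x axis) in normalized counts, 1 point per library, with a marker shape per group and blue for 2% serum, orange for 10% serum. The KO libraries lie at the upper left and the treated and labelled KO2_Rescue libraries at the lower right.

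Across the 11 group means on the log2(normalized count + 1) scale, TGFB2 and TGFBR2 had a Pearson r of −0.86, the strongest of the 45 pairs of these genes. TGFB1 and TGFB3 had an r of 0.78. The points share their normalization, and the groups share serum and parent cells, so these are descriptions of 11 groups. Over 9427 other genes, the groups of TGFB2 were most like those of DSTN (r = 0.99) and CNN2 (0.95), and those of TGFBR2 most like ZNF217 (0.96) and RHOT1 (0.96). TGFB1 was most like FZR1 (0.94) and SMAD7 (0.94), TGFB3 like AUP1 (0.96) and SLC2A5 (0.95), and TGFBR1 like ADGRA2 (0.94) and STK36 (0.94). LTBP1 was most like UNC45A and LGALS1 (0.98 each), but 197 genes passed 0.9 with it. LTBP2 was most like LIMS2 (0.93) and SPOCD1 (0.93), LTBP3 like SKIL (0.95) and RCAN1 (0.92), LTBP4 like LINC00680 (0.89) and NCBP3 (0.87), and TGFBR3 like ATG2B (0.84) and YTHDF2 (0.81).

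LTBP2 (ENSG00000119681, chromosome 14 from 74498183 to 74612378, minus strand), a matrix protein that binds fibrillin, was the member with the largest called change against WT. It had 36.5 and 24.0 normalized counts in WT, 460 and 321 in treated cells, 146 and 287 in KO1 and 148 and 190 in KO2. Every treated and KO library was above both WT libraries. The rise was 12.6-fold with TGF-β (log2 change 3.65, SE 0.61, adjusted p = 6.8e-04), 6.71-fold in KO1 (2.75, SE 0.61, adjusted p = 0.00228) and 5.50-fold in KO2 (2.46, SE 0.61, adjusted p = 0.0067). The KO2 call was lost without KO2 replicate 2 (adjusted p = 0.0502) or WT replicate 2 (adjusted p = 0.0559), and the KO1 call with the libraries of KO1 and WT alone (adjusted p = 0.0536). The KO clones differed from the treated cells by −1.05 (95% interval −2.19 to 0.09). The labelled KO2_Rescue libraries stayed high at 345 and 304. Rescue1 had 232 and 55.6 and Rescue2 had 179 and 92.0, which overlapped both the KO clones and the transduced cells, and the change from the KO clones was −0.61 (95% interval −1.54 to 0.32). Transduced WT cells had 30.2 to 119.

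LTBP3 (ENSG00000168056, chromosome 11 from 65538559 to 65558930, minus strand), which is secreted with the TGFB1 propeptide, had 444 and 368 normalized counts in WT. Treated cells had 1098 and 1019, KO1 had 964 and 764, KO2 had 752 and 735, and eGFP cells had 938 and 638. WT had the lowest mean of the 11 groups, and the libraries of these 4 other groups were all above it. TGF-β raised it 2.61-fold (log2 change 1.38, SE 0.19, adjusted p = 1.3e-04), also without either WT library. The change was 1.08 in KO1 (adjusted p = 3.3e-04), 0.88 in KO2 (adjusted p = 0.00258) and 0.93 in eGFP cells (adjusted p = 0.00196), on either side of the fold threshold. The KO2 and eGFP values passed it without WT replicate 1, at 1.01 and 1.07, and the eGFP value also passed without eGFP replicate 2 (1.21). The KO1 value fell below it without KO1 replicate 1 (0.92), without WT replicate 2 (0.95), and with equal library totals (0.68). Rescue2, at 440 and 448, was close to WT, whereas Rescue1 had 849 and 633.

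LTBP4 (ENSG00000090006, chromosome 19 from 40592883 to 40629818, plus strand), needed for elastic fibres, separated the KO clones. It had 2928 and 2333 normalized counts in WT, 5535 and 5427 in treated cells, 2483 and 2406 in KO1 and 5502 and 5073 in KO2. KO2 reached the level of the treated cells, while KO1 stayed within the range of WT. KO1 was lower than KO2 by a log2 change of −1.11 (SE 0.10, adjusted p = 3.0e-06), with an adjusted p of 0.0576 in the libraries of the 2 clones alone. The rise was 1.07 with TGF-β (SE 0.10, adjusted p = 3.8e-06) and 1.02 in KO2 (SE 0.10, adjusted p = 1.8e-06). Both values lie at the fold threshold and fell below it without WT replicate 2 (0.90 and 0.85) with equal library totals (0.83 and 0.79) and with quantile normalization (0.996 and 0.887), and the KO2 value also without KO2 replicate 1 (0.96). In KO1 the change was −0.10 (95% interval −0.31 to 0.12). Rescue1 had 3635 and 3415 and Rescue2 had 2435 and 2282, and the change from both KO clones together was −0.32 (adjusted p = 0.00178). It turned to 0.24 with KO1 alone as the reference and to 0.08 with equal library totals, so no direction is drawn from it.

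LTBP1 (ENSG00000049323, chromosome 2 from 32946953 to 33399509, plus strand), the binder that anchors latent TGFB1 and TGFB2, was scarce. It had 27.3 and 73.4 normalized counts in WT, 80.6 and 52.3 in treated cells, 166 and 183 in KO1, 157 and 186 in KO2 and 0 to 28.9 in the 8 transduced libraries. The KO libraries were all above the WT libraries, but the log2 changes were not called, at 1.93 in KO1 (95% interval −1.57 to 5.44) and with an interval of −1.60 to 5.41 in KO2. Rescue clones had 46.5 to 160 and eGFP cells had 19.4 and 0. This difference was called (log2 change 4.17, SE 1.42, adjusted p = 0.0382), but 1 eGFP library was at 0, so its size depends on the added count. It was 1.99 (adjusted p = 0.444) without that library, and the call was also lost without any of the 4 rescue libraries in turn (adjusted p of 0.0578 to 0.0820).

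LTBP4 made up 84.7% ± 1.1 (SD, n = 2) of latent binder mRNA per kb in WT, 84.2% ± 1.0 in KO2 and 68.1% ± 1.0 in KO1. LTBP3 made up 13.4% ± 0.21 in WT and 24.6% ± 3.1 in KO1. The sum of the 4 was 1380 ± 41.6 with TGF-β, 1266 ± 57.0 in KO2, 724 ± 26.7 in KO1 and 626 ± 92.0 in WT. KO1 thus had more TGFB1 and less LTBP4 than KO2.

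SOX2, OCT2 and PRRX1 lines were compared with eGFP cells in the same serum. None of the 10 genes was called in any of the 3 comparisons by limma, where 0.0206%, 0.0343% and 0.0411% of all genes were. At an unadjusted p the counts were 1, 0 and 0. The 1 was TGFBR3, at 0 and 5.64 normalized counts in SOX2 cells and 51.2 and 33.3 in eGFP cells. For TGFBR2 the 95% interval of the log2 change was −0.18 to 0.03 with SOX2, −0.20 to 0.01 with OCT2 and −0.17 to 0.05 with PRRX1.

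Other genes of the pathway were counted from 4 lists. With TGF-β, 7 of 9 measured targets were called higher and none lower, against the 3.58% of all genes called higher, with a median log2 change of 2.04. Without WT replicate 1 all 9 were called higher, and without WT replicate 2, 6 were called higher and 1 lower. COL1A1, a fibrillar collagen, had the largest rise of these lists over both WT libraries (log2 change 4.18, SE 0.86, adjusted p = 0.00324), from 11919 and 532 normalized counts to 46598 and 45007. The size rested on WT, at 6.43 without WT replicate 1 and 1.94 without WT replicate 2, where the rise of CDKN2B, a cell cycle inhibitor, was 2.28. NRP1, a co-receptor that binds TGF-β, had the largest called fall over both WT libraries (log2 change −1.23, SE 0.26, adjusted p = 0.00436), from 492 and 428 to 220 and 174. Without WT replicate 1 the integrin subunit ITGB8 (−2.71) and SMAD3 (−2.20) were called lower too, and without WT replicate 2 COL4A1 was (−2.87). Of 13 tested genes of activation and matrix anchoring, 5 were called higher and 0 lower, among them FBN1, which encodes the fibrillin that latent complexes attach to (2.05, adjusted p = 5.6e-05). Of 12 genes of SMAD transduction, 1 was called higher, the inhibitor SKIL (1.40, adjusted p = 0.0064), a share near the 7.84% of all genes called. SMAD7, an inhibitory SMAD, was called higher too without WT replicate 1 (1.03). FBN1 and SKIL were also called higher in KO1 (2.06, adjusted p = 1.3e-05, and 1.28, adjusted p = 0.00496). FBN1 was called higher in KO2 too (1.79, adjusted p = 7.6e-05), and SKIL was not (0.60, adjusted p = 0.189). Of the 13 genes of activation and matrix anchoring, 4 were called higher and 2 lower in KO1, where 25% of all genes were called. In KO2, 2 were higher and 1 lower, where 16.3% were called. Markers of mesenchymal cells moved with the results of TGF-β. They summed to 555 and 11958 in WT and to 45223 and 46718 with TGF-β, most of it COL1A1. Their part in the results was not tested.

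In the KO clones the targets split. In KO1 and in KO2, 2 of 9 were called higher and 4 lower, with median log2 changes of −1.43 and −1.07, where 25% and 16.3% of all genes were called. Without WT replicate 1 the medians were −0.09 and 0.19, with 2 higher and 2 lower in KO1 and 3 higher and 1 lower in KO2. Without WT replicate 2 they were −2.01 and −1.48, with 1 higher and 5 lower in KO1 and 0 higher and 7 lower in KO2. COL4A1, a basement membrane collagen, had the largest called fall in the mean of both clones (log2 change −4.83, SE 0.95, adjusted p = 8.3e-04), where 21.2% of all genes were called. It had 5934 and 125 normalized counts in WT and 8.49 to 74.5 in the KO libraries. By clone the change was −5.92 in KO1 and −3.74 in KO2. Without WT replicate 1 it was −3.15 in KO1 and, not called, −0.96 in KO2 (adjusted p = 0.136), and without WT replicate 2 it was −8.70 and −6.52.

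DCN, which encodes the TGF-β-binding proteoglycan decorin, had the largest rise in the KO clones, from 477 and 289 normalized counts in WT to 234810 and 221610 in KO1 and 98373 and 94978 in KO2. The log2 change was 8.64 (SE 0.15, adjusted p = 7.6e-15). Of 6 tested co-receptors, decoys and binding proteoglycans, ENG, NRP1 and DCN were called higher in each clone, where 25% and 16.3% of all genes were called. In KO1, ACVRL1 and the decoy receptor BAMBI were called lower and in KO2 0 were, and without either WT library in turn ACVRL1, a type I receptor of the same family with 7.56 and 6.68 normalized counts in WT and 0 in KO1, was no longer called. NRP1 thus rose in the KO clones (1.98, adjusted p = 5.9e-06) and fell with TGF-β, the signs that TGFBR2 had in the same comparisons. Epithelial markers were lower in the KO clones, at a sum of 35455 and 37765 in WT, 10055 to 11997 in KO1 and 19582 to 20579 in KO2. The sum of the renal epithelial markers went the other way, from 4469 and 6580 in WT to 8574 to 9441 in KO1 and 7549 to 7982 in KO2. Most of that rise was PAX8, with 2322 and 3743 in WT, 6382 and 6561 in KO1 and 5056 and 5096 in KO2. Transduced WT cells were near KO2, with an epithelial sum of 19193 to 23357, a renal sum of 7768 to 9416 and PAX8 at 5512 to 6286. In Rescue1 and Rescue2, in the same 10% serum, the epithelial sum was 35859 to 40448 and the renal sum 5482 to 6001. Over the 8 renal markers tested, the median log2 change was −0.05 in KO1 and 0.16 in KO2. The part of either list in these values was not tested. Set directly against the treated cells, the KO clones had 8 of 9 targets called lower and 0 higher, with a median log2 change of −3.65. In that comparison 9.83% of all genes were called lower. These targets are genes that TGF-β induces, and 7 of the 9 were called higher in the same treated libraries. The count therefore largely restates the treatment and is no separate result about the knockout.

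**Figure D5:**
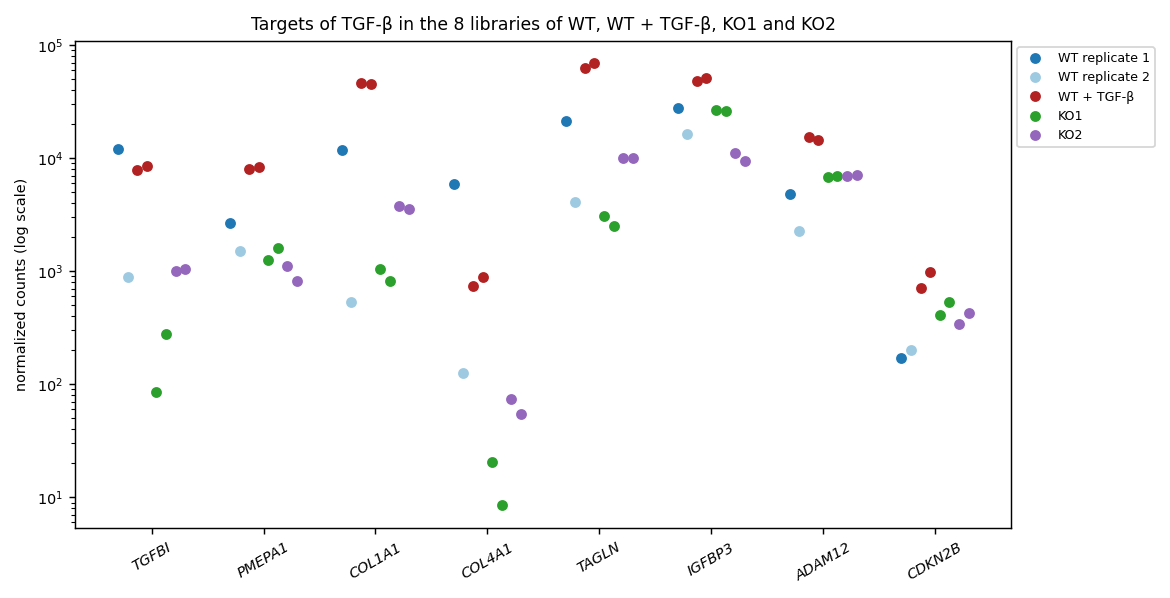
Normalized counts (y axis, log scale) of 8 of the measured targets of TGF-β (x axis) in the 8 libraries of WT, WT with TGF-β, KO1 and KO2, 1 point per library. WT replicate 1 lies above WT replicate 2 for every target shown but CDKN2B, and treated libraries lie above the KO libraries for all 8.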

How the data were processed

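Libraries were made with the TruSeq Stranded mRNA kit and sequenced as paired reads. The authors quantified transcripts with Salmon 1.9.0 on Ensembl release 94 cDNA (GRCh38), used DESeq2 1.26.0, and deposited log2 values of 36859 genes. The transformation is not given in the sources used here. It was read as variance stabilization from the shared lowest value of 11.32, and was inverted to normalized counts. Whether counting used strand is not given in the sources used here. Symbols, positions and canonical transcript lengths came from GENCODE release 44, and promoters from RefSeq on GRCh38.p14.

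The 14585 genes that reached 10 normalized counts in 2 or more libraries were tested with limma 3.58.1 in R 4.3.3 on log2(normalized count + 1), with a variance trend, a mean per group, and Benjamini-Hochberg adjustment per comparison. Unless a clone is given, rescue and KO stand for the mean of their 2 clones. Of 200 genes simulated with a log2 change of 2 for KO1 against WT among 14281 genes, 168 (84%) were called, with 9 unchanged genes called. The 200 averaged at least 50 normalized counts, and each gene had the same spread in all groups. Smaller changes and scarcer genes were therefore not covered by that share. Same-numbered duplicates were checked and did not deviate together. All 10 genes were named in every comparison. Of the pathway lists, those with the largest called rise and fall with TGF-β and in the mean of both KO clones were named, with CDKN2B, ITGB8, SMAD3, SMAD7, FBN1, SKIL, ENG, ACVRL1 and BAMBI chosen after their values were seen. The members and lists were chosen with earlier results of these data known. Count tests on whole reads were not run because the values are transformed. Some results of genes that belong to these lists or overlap the members are not reported here.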

Additional observations from a re-analysis of the deposited data

Results flagged for a closer look

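The 2 KO clones differed in 2 of the 10 genes, tested with limma as KO1 against KO2, where 6.97% of all genes were called. For TGFB1 the log2 difference was 1.13 (adjusted p = 3.6e-04), with 2790 and 2835 normalized counts in KO1 and 1404 and 1182 in KO2. For LTBP4 it was −1.11 (adjusted p = 3.0e-06), with 2483 and 2406 in KO1 and 5502 and 5073 in KO2. KO1 was higher than KO2 in both libraries for TGFB1 and lower in both for LTBP4. The TGFB1 difference was 0.94, under the fold threshold, with equal library totals. With the libraries of the 2 clones alone neither gene was called (adjusted p of 0.0582 and 0.0576). Each clone is 1 line with 2 libraries, so a difference between clones cannot be told apart from a difference between cultures. Both clones are SETD2 knockouts, so whether SETD2 had a part in these differences was not tested.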

How the results depend on the processing

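Counts of called genes out of 10 differed from those above in these settings. On the deposited log2 values the count was 0 in all 8 comparisons that had calls, because these values compress changes (the log2 change of LTBP2 with TGF-β was 0.40 there and 3.65 here). Fits of the compared groups alone have fewer residual degrees of freedom, and why their counts differed was not tested. There the count was 0 for TGF-β against WT, 2 for KO1 against WT, 0 for KO1 against KO2 and 1 for rescue against eGFP. With all libraries brought to equal totals it was 2 for KO1 against WT, 1 for KO1 against KO2 and 1 for rescue against KO. That scaling moved the median log2 change of all genes by −0.20 with TGF-β, −0.39 in KO1, −0.20 in KO2, −0.21 for KO1 against KO2 and 0.37 for rescue against KO. With quantile normalization it was 1 for KO2, 4 for TGF-β and 3 for KO1 against WT, and with equal totals 4 for TGF-β against WT. It was 4 for KO against TGF-β under both of these and in the fit of those groups alone. With a pseudocount of 0.5 or with no filter it was 1 for rescue against eGFP, and with a pseudocount of 5 or an unadjusted p it was 3. With KO2 alone as the reference it was 1 for rescue against KO, with Rescue1 or Rescue2 alone it was 2, and at an unadjusted p it was 1 for SOX2 against eGFP.

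Leaving out each library in turn gave 3 to 7 called genes for TGF-β against WT, 3 to 4 for KO1 and 1 to 3 for KO2 against WT, 2 for KO1 against KO2, 3 to 4 for KO against TGF-β, 2 to 4 for rescue against KO, 0 to 2 for rescue against eGFP, 1 for KO2_Rescue against KO2, 0 to 1 for eGFP against WT and 0 for each ectopic line. The eGFP count was 1, LTBP3, without WT replicate 1 or without eGFP replicate 2. Of 228 single values recomputed this way, 198 kept their side of the threshold and 0 changed direction.

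Of 527 single values under the other alternatives, 473 kept their side and 2 changed direction, both LTBP4 in rescue against KO (−0.32), at 0.0774 with equal totals and 0.24 with KO1 alone. Of 74 pairs of gene and comparison with an adjusted p of 0.05 or more, 29 changed sign under some alternative. With the replicate number as a block the counts were 5 for TGF-β, 4 for KO1 and 2 for KO2 against WT, as without it, and the block changed no call of these genes. Correlations of same-numbered deviations were −0.08 to 0.05 over 55 pairs of groups, so the numbers do not pair the libraries. Leaving the labelled KO2_Rescue libraries out of the fit, chosen after seeing the data, changed no call. The counts of the pathway lists without each WT library were also added after seeing the data. Depth limits TGFBR3, LTBP1 and TGFB3, whose levels rest on few reads.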
